A study of Homo sapiens with 9 samples.

Results

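The complement genes described here were 9 genes encoding complement components and regulators that cells outside the immune system also make, namely C1R, C1S, C3, CFB, CFI, SERPING1, CD46, CD55 and CD59. They were chosen by gene symbol, and each was found in the FPKM table, so that 9 of its 22295 entries are described. The table covers 9 RNA-seq libraries of U251, an established human glioblastoma cell line, with 3 libraries in each of 3 groups. The cells of every group had been treated with a lentivirus carrying an M-cherry marker. The study gives a high infection efficiency for U251, which need not mean every cell, and describes no sorting of infected cells before sequencing. The sh-Luci-3d group received a control hairpin against luciferase and was collected 3 days after infection, while sh-Ptbp1-3d and sh-Ptbp1-7d received a hairpin against PTBP1 and were collected after 3 and 7 days. In the reprogramming protocol of the study, cells are moved 2 days after infection to a neuronal induction medium (DMEM, F12 and neurobasal with N2, B27, forskolin and dorsomorphin), but the labels do not say whether the sequenced cells were in it. With 0 sh-Luci libraries of day 7 analysed here, the knockdown, the additional days and any time in this medium cannot be told apart in any comparison with sh-Ptbp1-7d. The groups come from a single cell line, the labels do not name the hairpin sequence used, and no source states that the 3 libraries of a group were separate cultures, so p-values measure the spread between libraries, which may be technical.

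Complement is a cascade of plasma and cell surface proteins that tags and lyses targets. In the classical pathway C1q recognises the target, the protease C1r activates the protease C1s, and C1s cleaves C4 and C2 to form an enzyme that splits the central component C3, whereas in the alternative pathway factor B supplies the protease that acts on C3. The cascade is held back by the C1 inhibitor encoded by SERPING1, by factor I, which degrades activated C3 and C4, and on host cells by CD46, CD55 and CD59. The liver makes most plasma complement, and in the brain astrocytes and microglia are local sources, with several of the genes known to respond to inflammatory cytokines.

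FPKM is a fragment count scaled to the length of the transcript and to the mapped fragments of the library, so levels of different genes can be set side by side. The values carry no whole-read steps, so that the depth of sequencing is unknown and intervals for counting error cannot be given. The FPKM values summed to between 367412 and 404922 per library. PTBP1, the targeted gene, was at 110.7 to 124.4 FPKM in sh-Luci-3d, 61.0 to 66.2 in sh-Ptbp1-3d and 49.7 to 51.0 in sh-Ptbp1-7d, with no overlap between groups. Of the glioma line markers, VIM, NES, SOX9 and CD44 were well detected. VIM was on average at 4168 FPKM in sh-Luci-3d, 4381 in sh-Ptbp1-3d and 1169 in sh-Ptbp1-7d, and CD44 at 182.0, 165.6 and 62.3. The astroglial markers GFAP and S100B stayed below 1 FPKM on average in every group. Their patterns differed from that of VIM. S100B averaged 0.121, 0.115 and 0.797 FPKM in the same order, with sh-Ptbp1-7d above all libraries of day 3, and the groups overlapped for GFAP. Changes were fitted by limma to log2(FPKM + 0.1), with a model of all 9 libraries, over the 15551 entries that averaged 0.1 FPKM or more. A gene was called when its fold change was above 2 with a Benjamini-Hochberg FDR under the limit of 0.05 in the comparison of the day 3 groups, or of 0.01 where sh-Ptbp1-7d was compared. On this scale the change of a gene with low values is understated. All 9 complement genes passed the filter, SERPING1 only through its sh-Ptbp1-7d libraries.

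The proteases C1R, C1S and CFB and the central component C3 rose past both thresholds in sh-Ptbp1-7d when compared with sh-Ptbp1-3d, and the membrane regulators CD55 and CD59 fell past both. CFI and CD46 passed the FDR with smaller changes, CFI upward and CD46 downward, and SERPING1, which was almost absent at day 3, was detected in each sh-Ptbp1-7d library. The genes that restrain the cascade thus went both ways, SERPING1 and CFI upward and CD46, CD55 and CD59 downward. Since SERPING1 passed the filter only through the group in which it was high, the counts are given for the other 8 genes. Of these, 4 were called higher, against 8.31% of all entries tested, and 2 lower, against 5.9%. Without the fold threshold 8 of 8 passed the FDR, against 35.8% of all entries, and the libraries did not overlap for 8 of 8, against 62.3%. The median log2 fold change of the 8 genes was 1.38, while that of all entries was 0.0924. Against sh-Luci-3d the same calls were made in sh-Ptbp1-7d, with 4 of 8 genes higher (8.93% of all entries) and 2 of 8 lower (5.68%), 8 of 8 past the FDR (35.6%) and 8 of 8 without overlap (55.9%). There the median was 0.90, against 0.0993 for all entries. Both comparisons use the same sh-Ptbp1-7d libraries and are not independent of each other. The 9 genes were chosen with earlier results of these data known. The counts and medians beside those of all entries are thus a description and not a test.

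C1R and C1S encode the paired proteases of the C1 complex and lie near each other on chromosome 12 (GRCh38), C1R from 7080199 to 7092607 and C1S from 6988259 to 7071032. C1R was at 0.0634, 0.194 and 0.27 FPKM in the sh-Luci-3d libraries, at 0.257, 0.223 and 0.138 in sh-Ptbp1-3d, and at 7.13, 7.71 and 6.97 in sh-Ptbp1-7d. The 3-day libraries overlapped, and those of sh-Ptbp1-7d stood far above them. C1R rose 35.3-fold by the ratio of group means between the sh-Ptbp1 groups (limma log2 change 4.61, SE 0.293, adjusted p = 5.36e-07). C1S was at 0.246, 0.238 and 0.332 FPKM in sh-Luci-3d, at 0.302, 0.461 and 0.311 in sh-Ptbp1-3d, and at 3.17, 3.16 and 2.49 in sh-Ptbp1-7d. C1S thus showed the same separation with a smaller rise, 8.21-fold by the ratio of means (limma log2 change 2.74, SE 0.216, adjusted p = 2.65e-06). With day 3 levels this low, the size of both rises depended on the pseudocount. The log2 change was 2.78 with a pseudocount of 1 and 5.12 with 0.01 for C1R, and 1.53 and 3.02 for C1S. C1R overlaps C1RL on the same strand in GENCODE v29, and C1S overlaps EMG1 on the same strand and LPCAT3 on the opposite one, so reads of these genes may have been divided between them. EMG1 did not pass the FDR (limma log2 change 0.046, 95% interval -0.23 to 0.33), LPCAT3 was lower in sh-Ptbp1-7d (-0.62), and C1RL is described with the other genes of the pathway.

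The ratio of C1R to C1S was not constant across the groups. It was 0.257, 0.818 and 0.813 in sh-Luci-3d, 0.851, 0.484 and 0.445 in sh-Ptbp1-3d, and 2.25, 2.44 and 2.8 in sh-Ptbp1-7d. C1S thus had the higher FPKM in each library of day 3, and C1R in each of day 7. All day 3 values of both genes were below 1 FPKM at an unknown depth, and reads may be shared with overlapping genes, so the day 3 ratios are uncertain. The mean log2 ratio differed by 2.13 between the sh-Ptbp1 groups in an exact permutation test (two-sided p = 0.1, the smallest that 3 against 3 libraries allow, and 0.15 adjusted over the 6 ratio comparisons made).

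CFB, factor B of the alternative pathway, lies on chromosome 6 from 31945650 to 31952084 and reached the highest level of the genes that rose. It was at 2.47, 2.9 and 3.67 FPKM in sh-Luci-3d, at 1.4, 2.09 and 1.84 in sh-Ptbp1-3d, and at 42.7, 45.6 and 41.9 in sh-Ptbp1-7d. The 3 groups did not overlap, with sh-Ptbp1-3d lowest and sh-Ptbp1-7d highest. Between the sh-Ptbp1 groups it rose 24.4-fold by the ratio of means (limma log2 change 4.55, SE 0.164, adjusted p = 1.32e-08), and against sh-Luci-3d it was 14.4-fold higher (log2 change 3.82, adjusted p = 3.78e-08). CFB overlaps C2 and AL645922.1 on the same strand, and AL645922.1 was listed at 0 throughout sh-Ptbp1-7d and at most at 0.421 FPKM elsewhere.

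C3, the component on which the pathways converge, lies on chromosome 19 from 6677704 to 6730562 and stayed low throughout. It was at 0.279, 0.185 and 0.235 FPKM in sh-Luci-3d, at 0.0594, 0.103 and 0.109 in sh-Ptbp1-3d, and at 0.771, 0.746 and 0.73 in sh-Ptbp1-7d. The order of the groups was that of CFB, again without overlap. C3 rose 8.28-fold by the ratio of means between the sh-Ptbp1 groups (limma log2 change 2.17, SE 0.252, adjusted p = 4.4e-05) and 3.22-fold against sh-Luci-3d (log2 change 1.36, adjusted p = 0.00109). Even after this rise its level was below 1 FPKM. With a pseudocount of 1 its log2 changes were 0.68 and 0.51, below the fold threshold. GPR108 overlaps C3 on the same strand and was at 55.2 FPKM in sh-Ptbp1-7d, 1.42-fold above sh-Ptbp1-3d by the ratio of means, so reads of GPR108 counted for C3 could alter its low values, and their part was not tested.

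SERPING1, on chromosome 11 from 57597387 to 57614853, encodes the serpin that inactivates C1r and C1s. It was listed at 0 FPKM in the 3 sh-Luci-3d libraries and at 0, 0 and 0.0397 in sh-Ptbp1-3d, whereas sh-Ptbp1-7d had 1.75, 2.04 and 1.98. It was thus near or at the lower end of the scale in the libraries of day 3 and clearly present in each library of day 7. No p-value is given, since the gene entered the fit only through its sh-Ptbp1-7d libraries, and no fold, since the fitted change depended on the pseudocount, from 1.53 with a pseudocount of 1 to 6.82 with 0.01 on the log2 scale between the sh-Ptbp1 groups.

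CFI, factor I, lies on chromosome 4 from 109740694 to 109802179 and was already abundant in the control cells. It was at 31.5, 28.1 and 26.7 FPKM in sh-Luci-3d, at 26.5, 24.9 and 26.5 in sh-Ptbp1-3d, and at 36.9, 38.3 and 42.3 in sh-Ptbp1-7d. Every sh-Ptbp1-7d library was above every library of day 3. The difference between the sh-Ptbp1 groups was 1.51-fold (limma log2 change 0.59, 95% interval 0.40 to 0.78, adjusted p = 0.000235), which passed the FDR and not the fold threshold.

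The membrane regulators had been the most abundant of the 9 genes together with CFI in the control cells, and all of them were lower in sh-Ptbp1-7d. CD55, which dissociates the enzymes that split C3, spans 207321376 to 207386804 of chromosome 1. It was at 18.9, 20.7 and 15.0 FPKM in sh-Luci-3d, at 17.5, 18.6 and 16.7 in sh-Ptbp1-3d, and at 9.08, 7.32 and 8.7 in sh-Ptbp1-7d. The groups of day 3 overlapped and sh-Ptbp1-7d lay below both. CD55 fell to a fitted 47.8% of sh-Ptbp1-3d (limma log2 change -1.07, SE 0.127, adjusted p = 5.34e-05). This change was close to the fold threshold, and without sh-Ptbp1-7d replicate 2, with a pseudocount of 1 or with TPM it was -0.97, -0.99 and -0.97, past the FDR and short of the fold.

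CD59, which blocks assembly of the membrane attack complex, spans 33703010 to 33736491 of chromosome 11. It was at 48.9, 86.5 and 46.1 FPKM in sh-Luci-3d, at 53.6, 54.1 and 51.7 in sh-Ptbp1-3d, and at 19.6, 19.5 and 30.7 in sh-Ptbp1-7d. Replicate 2 of sh-Luci-3d and replicate 3 of sh-Ptbp1-7d stood above the other libraries of their groups, and the groups of day 3 still did not overlap with sh-Ptbp1-7d. CD59 fell to a fitted 42.9% of sh-Ptbp1-3d (limma log2 change -1.22, SE 0.231, adjusted p = 0.00127), and without any filter on low values it missed the FDR (adjusted p = 0.0158, range over the alternatives 0.000123 to 0.0158). AL049629.2 overlaps CD59 on the same strand and went from 0 in replicate 1 and 0.429 in replicate 2 to 7.89 FPKM in replicate 3 of sh-Ptbp1-7d, so the division of reads between the genes is uncertain in the library where CD59 was highest.

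CD46, a cofactor with which factor I degrades activated C3 and C4, spans 207752057 to 207795513 of chromosome 1. It was at 60.7, 59.2 and 42.1 FPKM in sh-Luci-3d, at 51.0, 54.2 and 49.8 in sh-Ptbp1-3d, and at 35.5, 35.5 and 34.4 in sh-Ptbp1-7d. The sh-Ptbp1-7d libraries lay within a narrow range below all others. The fitted level in sh-Ptbp1-7d was 68.2% of that in sh-Ptbp1-3d (limma log2 change -0.55, 95% interval -0.83 to -0.28, adjusted p = 0.00357), which passed the FDR and not the fold threshold, and it missed the FDR as well in 10 of 20 alternatives, among them TPM, no filter on low values and leaving out any 1 of the 6 sh-Ptbp1 libraries (limma adjusted p over the alternatives 1.6e-05 to 0.0201). The FPKM of CD46, CD55 and CD59 summed to 103.2 to 166.4 in the libraries of day 3 and to 62.3 to 73.8 in those of day 7.

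**Figure D1:**
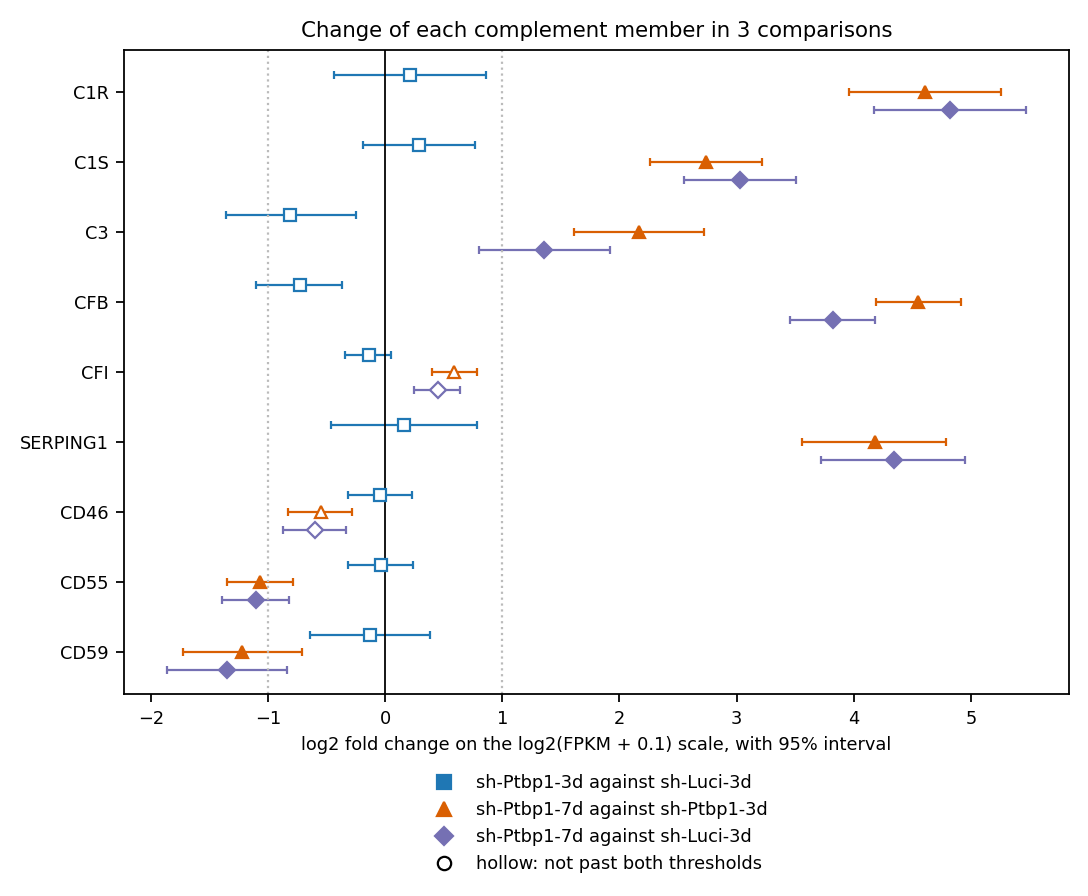
Log2 fold change of each complement gene with its 95% limma interval in 3 comparisons, on the log2(FPKM + 0.1) scale; squares compare the day 3 groups, triangles sh-Ptbp1-7d with sh-Ptbp1-3d, and diamonds sh-Ptbp1-7d with sh-Luci-3d, filled symbols are past both thresholds, dotted lines mark a fold change of 2, and the place of SERPING1, which passed the filter only through sh-Ptbp1-7d, depends on the pseudocount. C1R, C1S, C3 and CFB are filled on the right and CD55 and CD59 on the left in both comparisons with sh-Ptbp1-7d, and no square is filled. SERPING1 is also drawn filled on the right, but its symbols and intervals are not read as calls, because of how it entered the fit.

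At day 3 the question was whether the hairpin against PTBP1 had changed the complement genes by itself, in cells kept for the same time. By limma, 0 of 9 genes were called, against 0.0129% of all entries called higher and 0% called lower, and 0 of 9 passed the FDR alone, against 0.0322%. At an unadjusted p under 0.05 there were 2 of 9, CFB and C3, against 7.24% of all entries. CFB was at 58.9% of sh-Luci-3d by the ratio of means (limma log2 change -0.73, 95% interval -1.10 to -0.37, adjusted p = 0.36), and C3 at 38.8% (log2 change -0.81, 95% interval -1.36 to -0.25, adjusted p = 0.557). Without sh-Luci-3d replicate 3 the adjusted p of CFB was 0.0525, the lowest in a range over the alternatives up to 0.759. The libraries did not overlap for 3 of 9 genes, CFB, C3 and CFI, each lower in sh-Ptbp1-3d, against 10.8% of all entries in either direction. The intervals of the others held 0, from -0.44 to 0.86 for C1R, -0.19 to 0.77 for C1S, -0.34 to 0.05 for CFI, -0.32 to 0.23 for CD46, -0.32 to 0.24 for CD55 and -0.64 to 0.38 for CD59, while SERPING1 was listed at 0 in 5 of the 6 libraries of day 3.

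The order of the levels changed between the days. In sh-Luci-3d the means fell from CD59 (60.5 ± 22.5 FPKM) through CD46 (54.0 ± 10.3), CFI (28.7 ± 2.47), CD55 (18.2 ± 2.93) and CFB (3.02 ± 0.608) to C1S (0.272 ± 0.0519), C3 (0.233 ± 0.0469) and C1R (0.176 ± 0.104; SD, n = 3 each), with SERPING1 listed at 0. The libraries of CD59 and CD46 overlapped there, as did those of C1S and C3 and those of C3 and C1R. The order of sh-Ptbp1-3d was the same except that C1R (0.206 ± 0.0611 FPKM) stood above C3 (0.0904 ± 0.0271; SD, n = 3 each) without overlap, and CD59 and CD46 overlapped again. In sh-Ptbp1-7d CFB came first (43.4 ± 1.97 FPKM), followed by CFI (39.2 ± 2.79), CD46 (35.2 ± 0.642), CD59 (23.3 ± 6.46), CD55 (8.37 ± 0.923), C1R (7.27 ± 0.39), C1S (2.94 ± 0.388), SERPING1 (1.93 ± 0.156) and C3 (0.749 ± 0.0208; SD, n = 3 each). Of these neighbours CFB and CFI overlapped, and CD55 and C1R did.

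Promoter sequences are shown for CFB and C1R, the genes with the largest rises among those with a promoter in the RefSeq table, and for CD59, which fell. RefSeq promoters (GRCh38.p14, 250 bases before the start site to 50 after it) matched 6 of the 9 genes, namely C1R, CFB, CFI, CD46, CD55 and CD59. They were searched on both strands for an interferon-stimulated response element (GAAA, any 2 bases, GAAA), a gamma-activated site (TTC, any 3 bases, GAA, which reads alike on both strands) and a kappaB element (GGGA, any 2 bases, TTCC). The windows are chr6:31945845-31946144 on the plus strand for CFB, and chr12:7092396-7092695 and chr11:33736430-33736729 on the minus strand for C1R and CD59. Capitals mark the matches, and each sequence runs 5′ to 3′ along the gene.
CFB: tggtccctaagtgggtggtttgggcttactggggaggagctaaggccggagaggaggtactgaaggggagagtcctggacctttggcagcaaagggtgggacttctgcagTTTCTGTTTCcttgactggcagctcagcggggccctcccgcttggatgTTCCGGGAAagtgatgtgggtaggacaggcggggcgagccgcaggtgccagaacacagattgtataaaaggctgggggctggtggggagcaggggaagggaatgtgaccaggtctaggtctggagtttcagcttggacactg
C1R: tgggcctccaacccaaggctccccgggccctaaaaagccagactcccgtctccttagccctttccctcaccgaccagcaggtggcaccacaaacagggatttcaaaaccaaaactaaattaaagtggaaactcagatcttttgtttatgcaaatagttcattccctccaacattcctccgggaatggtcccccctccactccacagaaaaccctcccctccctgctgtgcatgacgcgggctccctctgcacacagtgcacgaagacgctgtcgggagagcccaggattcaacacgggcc
CD59: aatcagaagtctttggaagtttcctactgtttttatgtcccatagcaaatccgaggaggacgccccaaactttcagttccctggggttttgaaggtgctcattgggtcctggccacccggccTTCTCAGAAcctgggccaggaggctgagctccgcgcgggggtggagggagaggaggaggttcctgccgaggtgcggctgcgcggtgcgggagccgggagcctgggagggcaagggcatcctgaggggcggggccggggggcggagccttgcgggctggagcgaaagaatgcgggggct

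The CFB promoter held the response element at positions -140 to -131 and the gamma-activated site at -92 to -84, counted from the start site, without overlap of these motifs. CD59, with the opposite direction of change, held a gamma-activated site at -128 to -120, and the C1R window held none of the motifs. The response element was found in 1 of the 6 promoters, against 3.65% of 27305 RefSeq promoters, the gamma-activated site in 2 of 6, against 7.88%, and the kappaB element in 0 of 6, against 1.63%. A match is a description of the letters in this window only, and the motifs were chosen with earlier results of these data known.

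The other genes of the pathway were taken from a list of 42, of which 15 passed the filter on low values and 13 were listed at 0 in every library, among them C1QA, C1QB and C1QC, which encode the recognition protein of the C1 complex. Between the sh-Ptbp1 groups 4 of the 15 were called higher and 0 lower, beside the 8.31% and 5.9% of all entries given above. These were C2, C4A and C4B of the classical pathway and the receptor gene C5AR1. Against sh-Luci-3d 5 were called higher, with C1RL in addition, and 0 lower, and at day 3 0 were called in either direction by limma, with 3 of 15 at an unadjusted p under 0.05 (7.24% of all entries). The medians over the 15 were 0.03, 0.13 and -0.01 in log2, respectively, against 0.0924, 0.0993 and 0.01 for all entries. This list too was chosen with earlier results of these data known, so its counts are a description.

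C4A and C4B encode the C4 protein, a substrate of C1s. C4A was at 1.44 to 1.74 FPKM in the libraries of day 3 and at 12.1, 12.2 and 11.6 in sh-Ptbp1-7d, 7.39-fold above sh-Ptbp1-3d by the ratio of means (limma adjusted p = 2.96e-08). C4B was 7.33-fold higher, but the genes are nearly identical and the division of reads between them is uncertain. C2, which supplies the protease of the classical C3-splitting enzyme, was at 0.0546 to 0.261 FPKM at day 3 and at 1.73, 0.882 and 0.793 in sh-Ptbp1-7d (limma log2 change 2.47, SE 0.406, adjusted p = 0.00052). C2 overlaps CFB on the same strand, and CFB was far more abundant in sh-Ptbp1-7d, so reads of CFB counted for C2 could alter its values, and their part was not tested. C1RL, a relative of C1R, averaged 6.64 ± 0.261 FPKM in sh-Ptbp1-3d, as against 11.7 ± 0.727 in sh-Ptbp1-7d (n = 3 each, SD), a log2 change of 0.81 that passed the FDR and not the fold threshold.

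CFB and CFI encode proteases with opposite roles, the first building the enzyme that splits C3 and the second degrading its activated product. The ratio of CFB to CFI was 0.0786, 0.103 and 0.138 in sh-Luci-3d, 0.0527, 0.084 and 0.0695 in sh-Ptbp1-3d, and 1.16, 1.19 and 0.991 in sh-Ptbp1-7d. CFI was thus far above CFB per length in each library of day 3, and their levels were close at day 7. The mean log2 ratio differed by 4.04 between the sh-Ptbp1 groups, at the smallest two-sided p that the exact permutation test allows (p = 0.1, and 0.15 adjusted over the 6 comparisons).

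**Figure D2:**
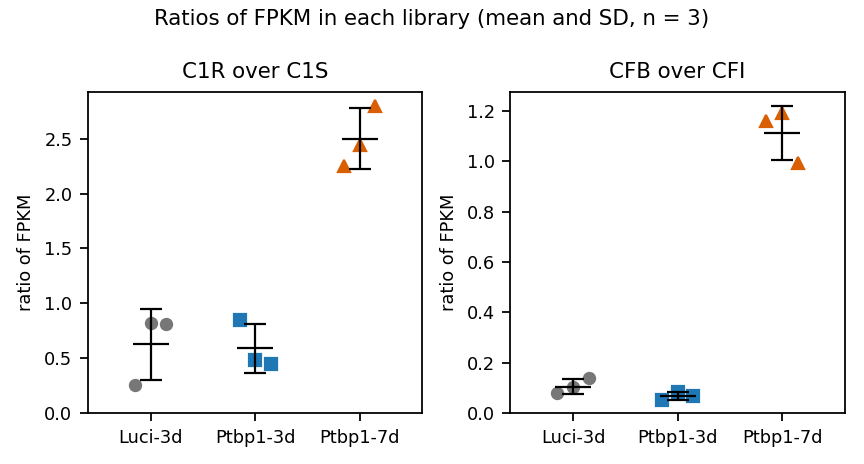
Ratios of FPKM in each library for C1R over C1S and CFB over CFI, with sh-Luci-3d as circles, sh-Ptbp1-3d as squares and sh-Ptbp1-7d as triangles; bars and whiskers are the mean and SD of 3 libraries. C1R over C1S is above 2.25 or equal to it in sh-Ptbp1-7d and below 0.851 or equal to it at day 3, and CFB over CFI is between 0.991 and 1.19 in sh-Ptbp1-7d and at most 0.138 at day 3.

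Of the remaining tested genes of the list, C5AR1 was called and the others were not. Among the regulators CLU, clusterin, was at 50.4 ± 2.01 FPKM in sh-Ptbp1-3d and 36.8 ± 6.36 in sh-Ptbp1-7d (SD, n = 3 each), and SUSD4 at 2.08 ± 0.326 and 1.21 ± 0.188 (SD, n = 3 each). Between these groups both passed the FDR without reaching the fold threshold, as did CFD, the protease that activates factor B, with a log2 change of -0.85 (limma adjusted p = 0.00391), and C1QBP with -0.51 (limma adjusted p = 0.000338). Against sh-Luci-3d, where CLU averaged 42.7 FPKM, CLU and SUSD4 did not pass the FDR (limma adjusted p = 0.0991 and 0.0525), while CFD and C1QBP did. The changes that follow are again between the sh-Ptbp1 groups. C5, which starts the terminal pathway, had a log2 change of 0.023 (95% interval -0.43 to 0.47), ITGB2, a subunit of complement receptors, one of 0.18 (95% interval -0.41 to 0.77), and MASP2, a protease of the lectin pathway, one of -0.33 (95% interval -0.86 to 0.20). CFP, properdin of the alternative pathway, had -0.31 (95% interval -1.28 to 0.65), and C8G, a chain of the terminal component C8, had 0.029 (95% interval -0.91 to 0.97). VTN, vitronectin, had 0.196, 0.342 and 1.01 FPKM in the libraries of sh-Ptbp1-7d and did not pass (limma log2 change 1.08, 95% interval 0.07 to 2.09, adjusted p = 0.0702). C5AR1, the receptor for the C5 fragment, was at 0.145, 0.17 and 0.254 FPKM in sh-Luci-3d, at 0.0685, 0 and 0.0612 in sh-Ptbp1-3d, and at 0.555, 1.19 and 1.05 in sh-Ptbp1-7d (limma log2 change 2.83 between the sh-Ptbp1 groups, SE 0.35, adjusted p = 7.03e-05).

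**Figure D3:**
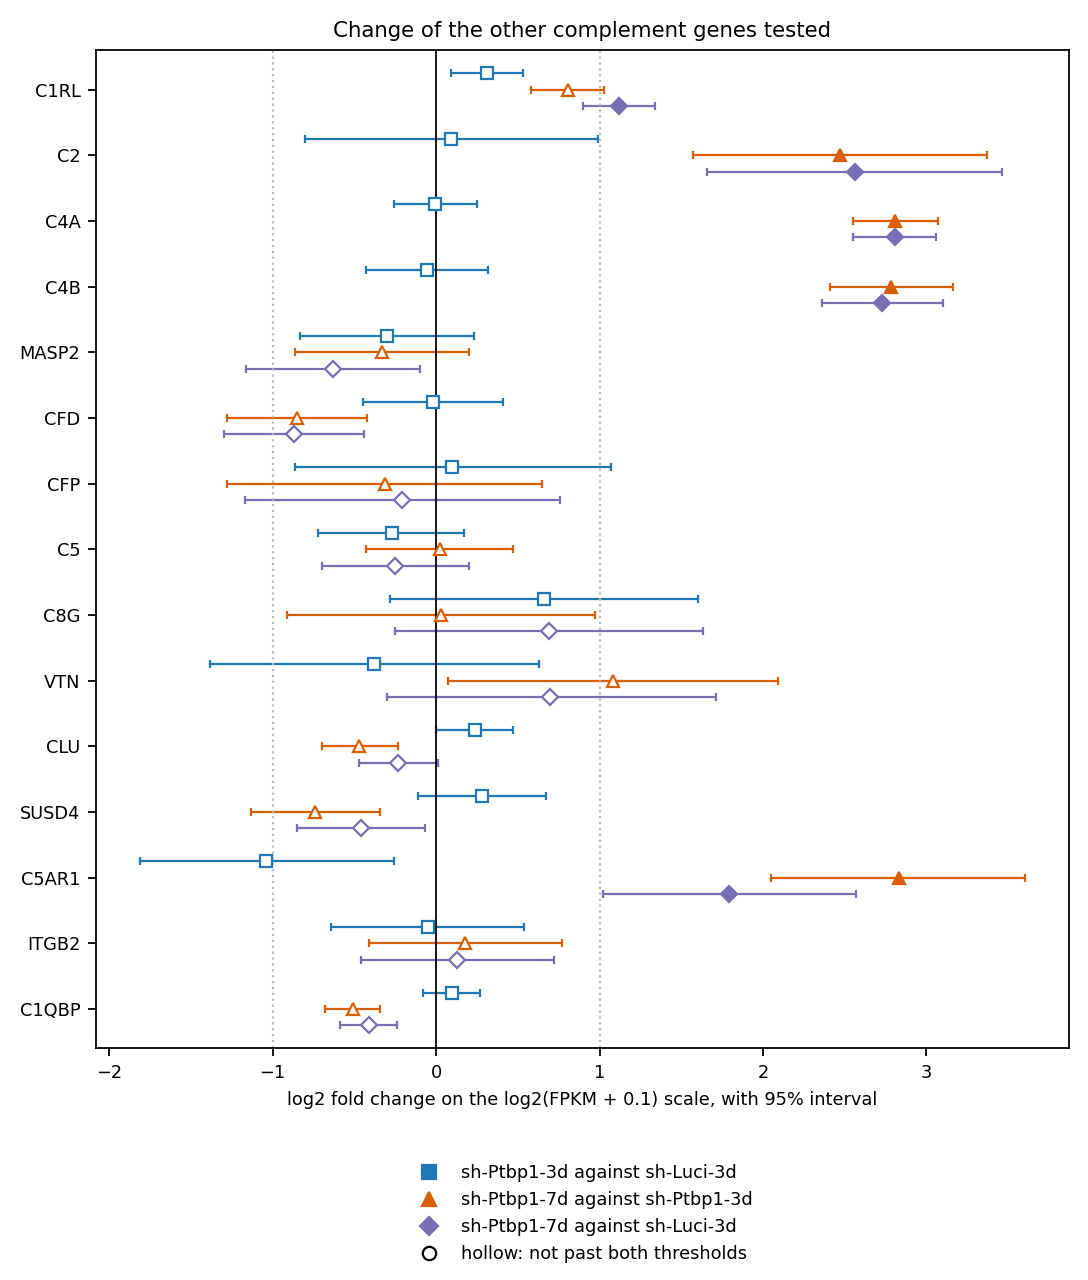
Log2 fold change with its 95% limma interval for the 15 other complement genes tested, on the log2(FPKM + 0.1) scale, where squares compare the day 3 groups, triangles sh-Ptbp1-7d with sh-Ptbp1-3d, and diamonds sh-Ptbp1-7d with sh-Luci-3d; filled symbols are past both thresholds and dotted lines mark a fold change of 2. C2, C4A, C4B and C5AR1 are filled on the right for both comparisons with sh-Ptbp1-7d, C1RL for that with sh-Luci-3d, and no symbol is filled on the left.

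Markers of other complement-producing cells were set beside these changes. Of 15 blood and immune cell markers 7 were listed at 0 in every library, PTPRC was at most at 0.0493 FPKM on average in a group, and the highest value in any library was 1.11 FPKM, for CD14. Their summed level ranged from 0.97 to 1.38 FPKM in sh-Luci-3d, 0.709 to 0.897 in sh-Ptbp1-3d and 0.774 to 1.44 in sh-Ptbp1-7d. The 6 hepatocyte markers summed to 0.442 to 0.765, 0.443 to 2.23 and 0.49 to 0.662 FPKM in the same order. Their highest value was 1.62 FPKM for TTR in sh-Ptbp1-3d replicate 3, and TTR was listed at 0 in the other 8 libraries. ALB stayed below 1 FPKM, and FGB was listed at 0 throughout. In each sh-Ptbp1-7d library the immune marker sum was below CFB, C1R, C1S and SERPING1. It was nearly equal to C3 in replicate 1 (0.774 against 0.771 FPKM) and above C3 in replicates 2 and 3, and it overlapped the range of C2 and C5AR1. The part of such cells in these levels was not tested. In bulk libraries, a change in the share of cells expressing a gene and a change in RNA per cell cannot be told apart.

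The genes whose pattern over the 9 libraries was most like that of each complement gene were found by Pearson's r on the log2 scale, as a description, since the libraries fall into those of day 3 and those of day 7 and many genes share that step. For C1R they were PSME2, NECTIN2 and GLIPR2 (r from 0.9973 to 0.9981), and 1105 of 13623 genes had an r above 0.95 with it. For C1S they were DENND4B, SH3BP5 and KSR1 (0.9955 to 0.9981), with 1134 genes above 0.95. For CFB they were DHRS7, APOBEC3F and SERPINE2 (0.9942 to 0.9959), with 951. SERPING1 was nearest to PTN, MMP2 and HLA-B (0.9979 to 0.9986), with 1186. As SERPING1 was listed at 0 in 5 libraries, its r rests mainly on the step between the days. C3 was nearest to CFAP44, MERTK and TMEM225B (0.9801 to 0.984), with 70 genes above 0.95, and CFI to CYP21A2, BDH2 and JAM2 (0.9842 to 0.9853), with 162. Among the genes that were lower, CD46 was nearest to IARS1, ATP6V1D and CSE1L (0.9924 to 0.9953), with 302 genes above 0.95. CD55 was nearest to PLAC8, SPOCK1 and TSN (0.991 to 0.995), with 644, and CD59 to PAICS, MFF and GNG5 (0.9736 to 0.9803), with 36.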

How the data were processed

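The 9 RNA-seq libraries of U251 cells were grouped by their titles into the control group sh-Luci-3d and the knockdown groups sh-Ptbp1-3d and sh-Ptbp1-7d. The authors filtered and mapped Illumina HiSeq reads and deposited an FPKM value per gene and library. HISAT2 and GRCh38 are named in the submitters' processing notes, and the counting program is not given in the sources used here. The authors also deposited coordinates of loci assembled by StringTie, another kind of value, used here only to look for assembled loci over the 9 genes, of which 0 were found. Gene positions are from GENCODE v29 (GRCh38) and promoters from RefSeq (GRCh38.p14).

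From the FPKM values, log2(FPKM + 0.1) of the 15551 entries with a mean of at least 0.1 FPKM was fitted with limma 3.58.1 in R 4.3.3, all 9 libraries in a model of the 3 groups with an intensity trend, with Benjamini-Hochberg adjustment over all entries tested. The fit was tested on simulated data. Ratios were compared with exact permutation tests. The 9 genes, the list of 42 others, the markers and the motifs were chosen with earlier results of these data known. Named beside the 9 genes and PTBP1 were those listed genes that averaged 1 FPKM or more in a group or were called. The 3 genes most alike each were also named. Chosen after their values were seen were overlapping genes and CFP, C8G, MASP2, VTN, PTPRC, ALB, FGB, TTR, GFAP, S100B, CD14 and the C1q genes. Plots are from matplotlib 3.10.9 (Python 3.11.15). Some further genes of the pathway are not reported here. Alternatives were other pseudocounts, filters, scalings, thresholds and fits, a replicate block, and leaving out each library in turn.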

Additional observations from a re-analysis of the deposited data

How the results depend on the processing

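The calls of C1R, C1S and CFB in both comparisons with sh-Ptbp1-7d held in 20 of 20 alternative fits. C3 was called in 18 of the 19 that tested it, in each comparison. Against sh-Ptbp1-3d CD55 was called in 17 of 20 and CD59 in 19 of 20, and against sh-Luci-3d in 20 of 20 and 19 of 20. SERPING1 is left out here, as it entered the fit only through sh-Ptbp1-7d. At day 3 the count of called complement genes was 0 under each alternative. C3 was not tested with a filter of at least 1 FPKM, and with a pseudocount of 1 it fell short of the fold threshold. Of the other complement genes, 2 in place of 4 were called against sh-Ptbp1-3d and 3 in place of 5 against sh-Luci-3d with a pseudocount of 1. The counts were the same with a filter of at least 1 FPKM, which left C2 and C5AR1 untested (means of 0.455 and 0.389 FPKM). Without the fold threshold 9 in place of 4 were called against sh-Ptbp1-3d, 4 of them lower. Quantile normalization called 5 against sh-Ptbp1-3d and 6 against sh-Luci-3d, with 1 lower in each. Leaving out sh-Luci-3d replicate 1 also gave 6 against sh-Luci-3d, with 1 lower. TPM moved the median log2 fold change of all entries between the sh-Ptbp1 groups from 0.0924 to 0.195. At day 3 the direction of 4 genes, none of them called, turned when 1 sh-Luci-3d library was left out, with ranges of the log2 fold change over the libraries left out of -0.13 to 0.46 for C1R, -0.22 to 0.05 for CD46, -0.17 to 0.06 for CD55 and -0.29 to 0.16 for CD59. C1R turned to -0.13 without replicate 1, CD46 to 0.048 and 0.03 without replicates 1 and 2, and CD55 and CD59 to 0.06 and 0.16 without replicate 2. The labels do not say whether the replicate numbers pair the libraries. Deviations from the group means of same-numbered libraries correlated by -0.032 to 0.051 (-0.073 to 0.061 for other numbers), which shows no shared effect but cannot exclude pairing. With the number as a replicate block, C1R, C1S, C3, CFB, CD55 and CD59 were called in both comparisons with sh-Ptbp1-7d. So were 4 other complement genes against sh-Ptbp1-3d and 5 against sh-Luci-3d, as without the block. Unknown depth limits what can be said of genes with values below 1 FPKM.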
